A study of Mus musculus with 10 samples.

Results

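Complement is a cascade of blood proteins, several of which are also made inside the kidney. In the classical and lectin pathways, proteases cleave C4 and C2 into an enzyme that cleaves C3, and in the alternative pathway C3 itself, factor B and factor D build such an enzyme. Cleaved C3 marks surfaces and leads to the terminal components, while inhibitors such as C1 inhibitor and factor I hold the cascade back. Tubular cells, fibroblasts and macrophages are known sources of complement RNA in the injured kidney, and C3 is among its most studied products there. The genes described here are locally made components and regulators outside C1q, namely C1ra, C1s1, C4b, C2, Serping1, C3, Cfb, Cfd and Cfi. They were picked by gene symbol, and 9 of 54532 genes in the table matched.

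Bulk RNA-seq was performed on obstructed kidneys of wild-type male C57BL/6 mice. The mice had unilateral ureteral obstruction (UUO) when 8 weeks old, and kidneys were collected on day 14. The DMM group (n = 5) received dimethyl malonate, an inhibitor of succinate dehydrogenase, by intraperitoneal injection of 40 mg/kg every other day, and the control group (n = 5) received PBS. Every library came from a single mouse, and unobstructed kidneys were not analysed here, so that no value below shows what obstruction itself did. Total counts ranged from 16457495 to 18078777 in PBS libraries and from 15722527 to 19475833 in DMM libraries. As kidney tissue, the libraries held markers of tubule and podocyte throughout, with the proximal tubule gene Kap at 587 to 4943 CPM (counts scaled to the size of the library) and the podocyte gene Podxl at 281 to 544 CPM. Normalised values are CPM after TMM scaling.

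A pair of libraries stood apart from their groups. The summed level of 20 interferon response genes was 6121, 4111, 4698, 6263 and 6194 CPM in PBS replicates 1 to 5, and 4995, 895, 849, 917 and 684 CPM in DMM replicates 1 to 5, so that DMM replicate 1 lay among the PBS libraries. The summed level of 10 proximal tubule genes was 9161 CPM in PBS replicate 3, against 1271 to 3506 CPM in the other PBS libraries and 2632 CPM in DMM replicate 1. In the deposited group means, which are weighted sums of the counts, a weight of 0 fell on DMM replicate 1 and on PBS replicate 3. Each comparison is therefore given over all 10 libraries and over the 8 that remain without this pair. Because the pair was set aside by its values in these same data, results over 8 libraries tend to overstate the group difference. Their p-values, calls and lack of overlap are descriptive. A different feature marked DMM replicate 4. Tested genes of 7040 bases or more had a median log2 deviation of 0.59 from the other DMM libraries, and those of up to 2080 bases one of -0.68. In the other DMM libraries these deviations lay between -0.18 and 0.24, and in the PBS libraries between -0.03 and 0.02. Each library was compared with the rest of its group, so the reference of the other DMM libraries includes DMM replicate 4. Their deviations in part mirror it. Mitochondrial genes took 5.62% of its counts, against 2.30% to 4.39% in the other DMM libraries and 1.97% to 3.66% in PBS.

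Over all 10 libraries, edgeR's quasi-likelihood test called 0 of the 8 tested members (Benjamini-Hochberg p below 0.05, more than 1.5-fold), and it called 0% of the 16505 tested genes lower and 0% higher. With the same threshold on the fold change and p below 0.05 before adjustment, 5 members (C1ra, C1s1, C4b, C2 and Serping1) were lower and 0 higher, against 4.11% of all tested genes that were lower. Of the 16505 tested genes, 315 were higher in this way. DESeq2 also called 0 members over these libraries. Over the 8 libraries, 1 of 9 members, C1s1, was called lower and 0 were called higher, when 3.56% of 16550 genes were called lower and 2.73% higher. The same 5 members were lower at an unadjusted p, against 7.24% of all tested genes. The median log2 fold change of DMM over PBS was -0.62 over the 8 members tested on 10 libraries and -0.75 over the 9 tested on 8 libraries, and 0.02 over all tested genes in either case. In a tissue extract, fewer cells that make a transcript and less of it in each cell cannot be told apart.

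**Figure D1:**
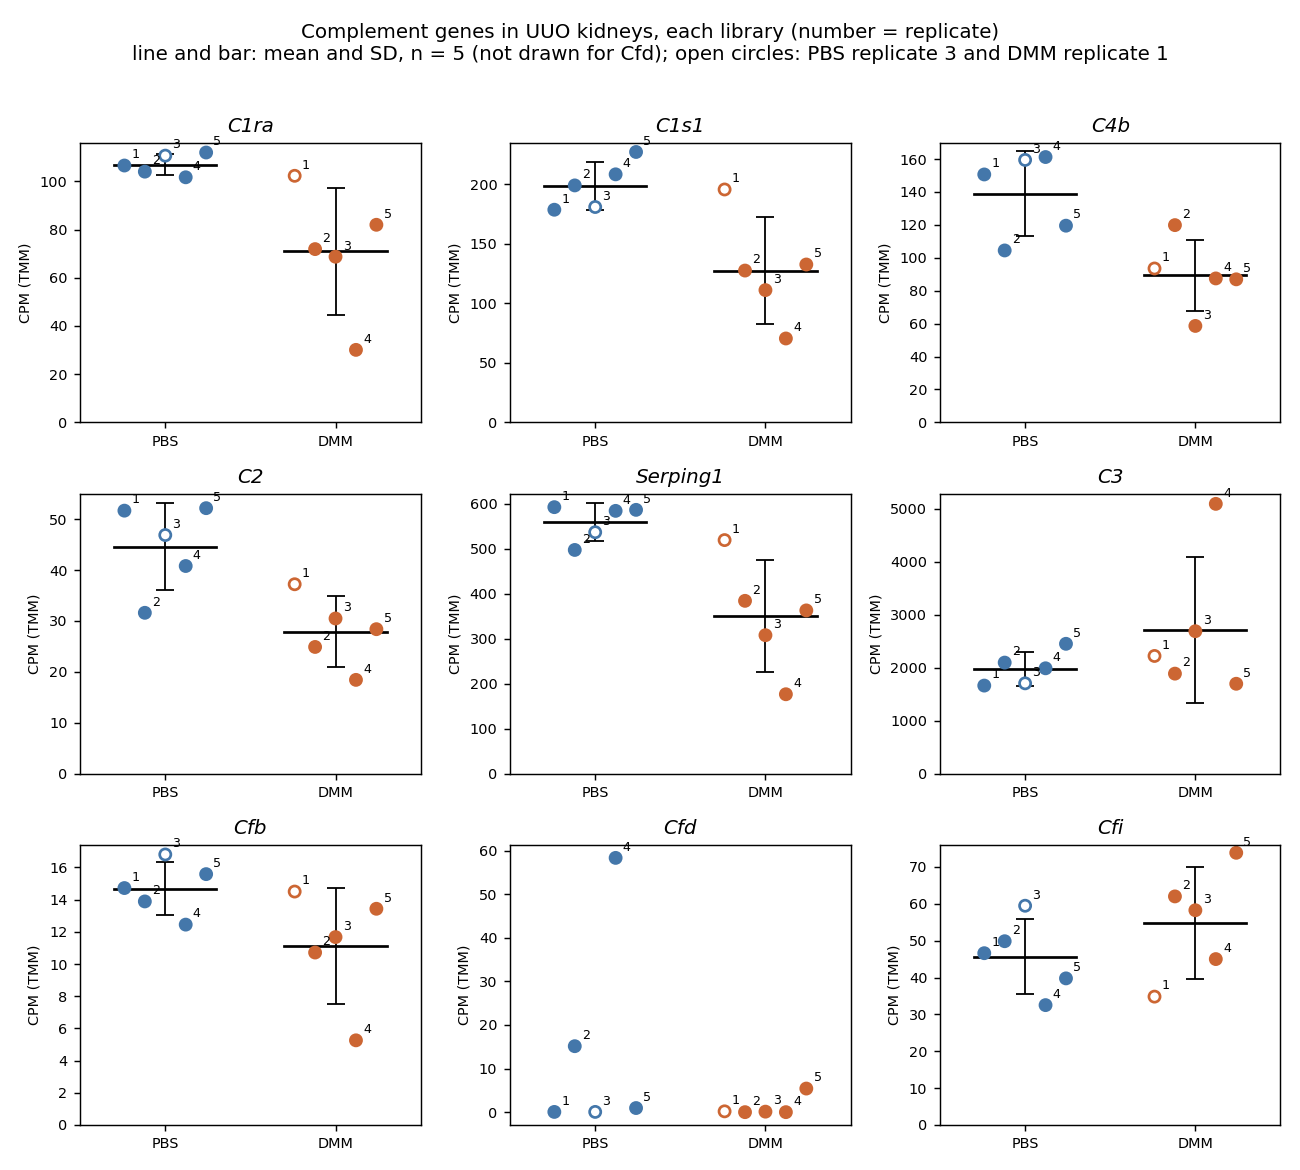
Normalised level (CPM after TMM) of the 9 complement genes in each library of PBS-treated and DMM-treated UUO kidneys, with the replicate number at each point. Lines and bars are the mean and SD of 5 libraries, left out for Cfd, and open circles are PBS replicate 3 and DMM replicate 1; DMM replicate 1 lies with the PBS libraries for C1ra, C1s1 and Serping1, and DMM replicate 4 is the lowest for these genes and the highest for C3.

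C1ra (ENSMUSG00000055172, chr6:124512405-124523443) encodes C1r, the protease that activates C1s after C1q has bound. Its level was 107, 104, 111, 102 and 112 CPM in PBS replicates 1 to 5, and 102, 71.9, 68.7, 30.1 and 82.0 CPM in DMM replicates 1 to 5. The PBS libraries were close together. DMM replicate 1 was inside their range, and the other 4 DMM libraries were below it. The log2 fold change was -0.59 (standard error 0.25, edgeR adjusted p = 0.430) over 10 libraries and -0.75 (standard error 0.26, adjusted p = 0.137) over 8. The unadjusted p over 10 libraries was 0.0357, and without a single library it ran from 0.00481 without DMM replicate 4 to 0.0629 without DMM replicate 3. It was above 0.05 in 6 of these 10 fits, namely without PBS replicates 1, 2, 3 and 5 and without DMM replicates 2 and 3.

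C1s1 (ENSMUSG00000038521, chr6:124530345-124542359) encodes C1s, which cleaves C4 and C2. Its level was 178, 199, 181, 208 and 227 CPM in the PBS libraries, and 195, 127, 111, 70.4 and 132 CPM in the DMM libraries. The pattern resembled that of C1ra, with DMM replicate 1 among the PBS libraries and DMM replicate 4 lowest. Over 8 libraries C1s1 fell from 203 ± 20.2 (SD, n = 4) to 110.3 ± 28.1 (SD, n = 4) CPM, which on the log2 scale is -0.88 (standard error 0.20, edgeR adjusted p = 0.0306, range over the alternatives 0.00107 to 0.106), and each of the 4 DMM libraries was below each of the 4 PBS libraries. Over 10 libraries the log2 fold change was -0.64 (standard error 0.22, adjusted p = 0.387). The call over 8 libraries did not hold in 6 of the 8 fits that left out another library, namely without PBS replicates 1, 2, 4 and 5 and without DMM replicates 3 and 5, where the adjusted p from edgeR was 0.0620, 0.0826, 0.0949, 0.106, 0.0882 and 0.0541. Its log2 fold change in these 6 fits stayed between -0.98 and -0.83. With only DMM replicate 1 left out, C1s1 was called (log2 fold change -0.85, edgeR adjusted p = 0.0339), while the adjusted p reached 0.702 among the other alternatives over 10 libraries.

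C1ra and C1s1 are neighbours that are read from opposite strands, with 6901 bases between their ends. The ratio of C1s1 to C1ra in CPM was between 1.61 and 2.34 over the 10 libraries (median 1.84), a narrow span beside the levels themselves. Its highest value was in DMM replicate 4. Both genes have close copies, and of the 100-base stretches of the longest annotated transcript, 35.9% in C1ra also occur in C1rb or Gm18840. Some of those in C1s1 occur in C1s2, and 18.4% of its exon bases lie opposite Gm16567 on the other strand. The copies C1rb and C1s2 were at 0.41 and 1.34 CPM at most. How reads that match several genes were counted is not given in the sources used here, so that the levels of both genes are uncertain to that extent.

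C4b (ENSMUSG00000073418, chr17:34728380-34743882) encodes C4, the substrate of C1s and of the lectin pathway proteases. Its level was 151, 104, 160, 161 and 120 CPM in PBS replicates 1 to 5, and 93.5, 120, 58.6, 87.5 and 86.9 CPM in DMM replicates 1 to 5. In C4b DMM replicate 1 was below every PBS library and DMM replicate 2 was inside their range, so that the groups overlapped through another mouse than in C1s1. The log2 fold change was -0.64 (standard error 0.19, adjusted p = 0.378 from edgeR) over 10 libraries and -0.60 (standard error 0.22, adjusted p = 0.157) over 8. The copy C4a, with which C4b shares 16.5% of its 100-base stretches, was at 0.24 to 1.06 CPM.

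C2 (ENSMUSG00000024371, chr17:34862604-34898265) encodes the protease that joins C4b protein to form the C3-cleaving enzyme. Its level was 51.7, 31.6, 46.9, 40.8 and 52.2 CPM in PBS libraries and 37.2, 24.9, 30.5, 18.4 and 28.4 CPM in DMM libraries. PBS replicate 2 and DMM replicate 1 made the groups overlap. Without PBS replicate 3 and DMM replicate 1 the groups did not overlap, although PBS replicate 2 and DMM replicate 3 were only 31.6 and 30.5 CPM. The log2 fold change was -0.68 (standard error 0.19, adjusted p = 0.378 from edgeR) over 10 libraries and -0.79 (standard error 0.21, adjusted p = 0.0556, range over the alternatives 0.0122 to 0.169) over 8. C2 was called lower with DESeq2 (0.0122) and without DMM replicate 4 (0.0194, edgeR), and with the correction for gene length (0.0390, edgeR), which was chosen after seeing the data.

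Serping1 (ENSMUSG00000023224, chr2:84765387-84775444) encodes C1 inhibitor, which inactivates C1r, C1s and the lectin pathway proteases. Its level was 592, 497, 536, 584 and 586 CPM in PBS replicates 1 to 5, and 519, 384, 308, 176 and 363 CPM in DMM replicates 1 to 5. The inhibitor thus had the same order of libraries at the low end as its target C1s1, with DMM replicate 4 lowest and replicate 3 next. The log2 fold change was -0.68 (standard error 0.23, adjusted p = 0.385 from edgeR) over 10 libraries and -0.88 (standard error 0.23, adjusted p = 0.0509) over 8. Over 8 libraries the adjusted p lay on either side of the threshold. It was 0.0499 with RLE size factors (edgeR), 0.00611 with DESeq2 and 0.0109 with the correction for gene length (edgeR). With library size alone it was 0.0601, and without the filter on low counts 0.0556 (edgeR). When another library was left out, it ran from 0.00136 without DMM replicate 4 to 0.143 without PBS replicate 5 (edgeR).

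For C1ra, C1s1, C2 and Serping1, every DMM library was below every PBS library over the 8 libraries, which makes 4 of 9 members, against 10.6% of all tested genes. Over all 10 libraries this held for 0 of 9 members, against 1.16% of all tested genes. DMM replicate 1, which was set aside by its values, was inside the PBS range for each of C1ra, C1s1, C2 and Serping1. The size of these differences depended on DMM replicate 4. Without it, the log2 fold change over the other 9 libraries was -0.40 for C1ra, -0.49 for C1s1, -0.56 for C2 and -0.51 for Serping1, each with an unadjusted p under 0.05 and an adjusted p of 0.256 (edgeR), and C4b was at -0.63. Of the members lower before adjustment over 10 libraries, C4b alone thus remained past the fold change threshold, while Cfd, which could be tested in this fit, was at -3.38 (adjusted p = 0.348). From the 8 libraries, leaving it out gave smaller differences with lower p. C1s1 (-0.72, edgeR adjusted p = 0.00107), Serping1 (-0.68, 0.00136) and C2 (-0.66, 0.0194) were then called, and C1ra (-0.52, 0.00143) was short of the fold change threshold alone. In that fit 7.61% of 16828 tested genes were called lower and 6.71% higher, against 3.56% and 2.73% with DMM replicate 4.

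C3 (ENSMUSG00000024164, chr17:57203970-57228136) is the component on which all pathways meet. Its level was 1660.2, 2094, 1703, 1986 and 2448 CPM in PBS replicates 1 to 5, and 2219, 1885, 2686, 5088 and 1694 CPM in DMM replicates 1 to 5. The groups overlapped, and DMM replicate 4 was far above the others. PBS kidneys had a mean of 1978 ± 321 (SD, n = 5) CPM, and DMM kidneys one of 2714 ± 1379 (SD, n = 5) CPM. On the log2 scale the difference was 0.46 (standard error 0.28, adjusted p = 0.546 from edgeR) over 10 libraries and 0.47 (standard error 0.33, adjusted p = 0.463) over 8. Without DMM replicate 4 it was 0.10 and 0.03, so the higher mean of the DMM group rested on that library. With a correction for gene length, chosen after seeing the data, C3 (5143 bases) had log2 fold changes of 0.45 over 10 libraries and 0.46 over 8, close to those without it.

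Cfb (ENSMUSG00000090231, chr17:34856374-34862518) encodes factor B, the protease of the alternative pathway. Its level was low, at 14.7, 13.9, 16.8, 12.4 and 15.6 CPM in the PBS libraries and 14.5, 10.7, 11.7, 5.26 and 13.4 CPM in the DMM libraries. Over 10 libraries 2 DMM libraries were inside the PBS range and 3 were below it. The difference on the log2 scale was -0.40 (standard error 0.23, adjusted p = 0.533 from edgeR) over 10 libraries and -0.46 (standard error 0.26, adjusted p = 0.353) over 8, and neither passed the test.

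The values of Cfb and C2 carry a limit of annotation. Both genes lie on the minus strand of chromosome 17 with 85 bases between them, and the gene Gm20547 (chr17:34856412-34882042) runs through both on the same strand. In the GENCODE vM21 annotation, whose coordinates equal those in the deposited table, exons of Gm20547 cover 79.5% of the exon bases of Cfb and 42.8% of those of C2. Gm20547 had 0 counts in 9 libraries and 2 counts in DMM replicate 1. Whether reads on shared bases were dropped is not given in the sources used here. Of 2825 exon bases, 579 are unique to Cfb, so the level of Cfb may be understated, while a fold change compares the same bases in both groups. The ratio of C2 to Cfb in CPM was between 2.11 and 3.51 (median 2.70).

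**Figure D2:**
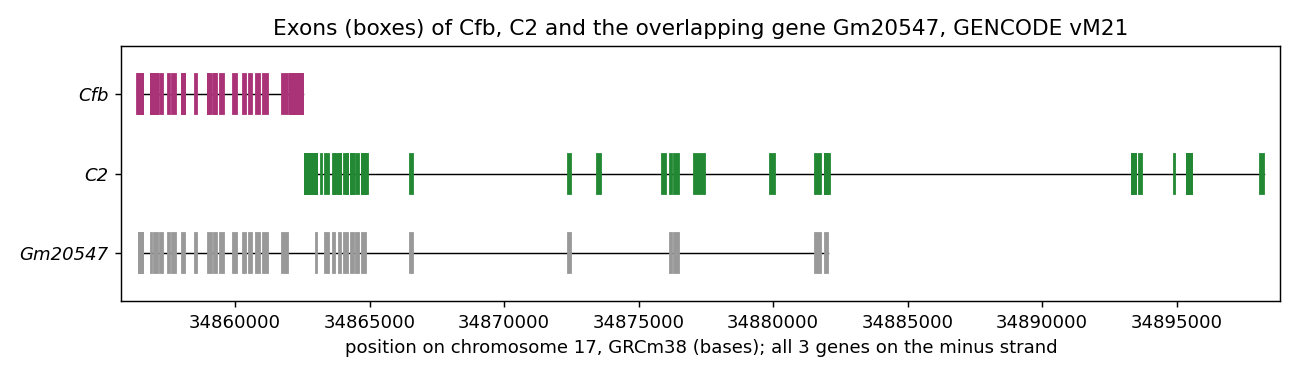
Map of chromosome 17 (GRCm38, position in bases) with the exons of Cfb, C2 and Gm20547 as boxes and introns as lines. Exons of Gm20547 cover 79.5% of the exon bases of Cfb and 42.8% of those of C2.

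Cfd (ENSMUSG00000061780, chr10:79890853-79892655) encodes factor D, or adipsin, which cleaves factor B and is known as a product of fat cells. Its counts were 1, 257, 1, 1096 and 16 in PBS replicates 1 to 5, and 3, 0, 2, 0 and 89 in DMM replicates 1 to 5. Of the 10 libraries, 3 held nearly all of them, namely PBS replicate 4 at 58.3 CPM, PBS replicate 2 at 15.1 CPM and also DMM replicate 5 at 5.41 CPM. A count of 0 allows up to 3 counts, or 0.189 CPM in DMM replicate 2 and 0.181 CPM in DMM replicate 4, for counting error alone. Cfd did not pass the filter on low counts over 10 libraries. Over 8 libraries its log2 fold change was -3.75 (standard error 1.81, adjusted p = 0.272 from edgeR), and it ran from -8.63 without DMM replicate 5 to -1.96 without PBS replicate 4.

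Of the 8 adipocyte genes, some had counts mainly in the libraries with Cfd and others did not. Adipoq was at 12.2, 2.06 and 1.09 CPM in PBS replicate 4, PBS replicate 2 and DMM replicate 5, and at most 0.294 CPM in the other 7 libraries, with 0 counts in 5 of them. Plin1 was at 6.92, 0.942 and 0.122 CPM in the same libraries and had 0 counts in the other 7. Cidec was at 8.03 and 3.12 CPM in PBS replicates 4 and 2 and at 0.790 CPM or less elsewhere, Retn had counts in these 3 libraries and 1 count in DMM replicate 3, and Lep had counts in PBS replicate 4 alone. In contrast, Fabp4, the most abundant of the list, had counts in every library, at 77.3 CPM or less, as did Lipe at 10.3 to 22.6 CPM, and Cidea had 0 counts in PBS replicate 4. Except for Fabp4, these genes were singled out after their values were seen. The summed level was 42.0, 67.3, 58.9, 128 and 48.8 CPM in PBS replicates 1 to 5, and 51.7, 61.1, 73.7, 46.7 and 84.6 CPM in DMM replicates 1 to 5, of which Fabp4 and Lipe made up most. As a mean over the 8 genes of the log2 level relative to PBS, the list was at 1.94 in PBS replicate 4, 0.70 in PBS replicate 2 and 0.27 in DMM replicate 5, and at -0.76 or less in the other 7 libraries. The part of adipose tissue in the Cfd values was not tested.

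**Figure D3:**
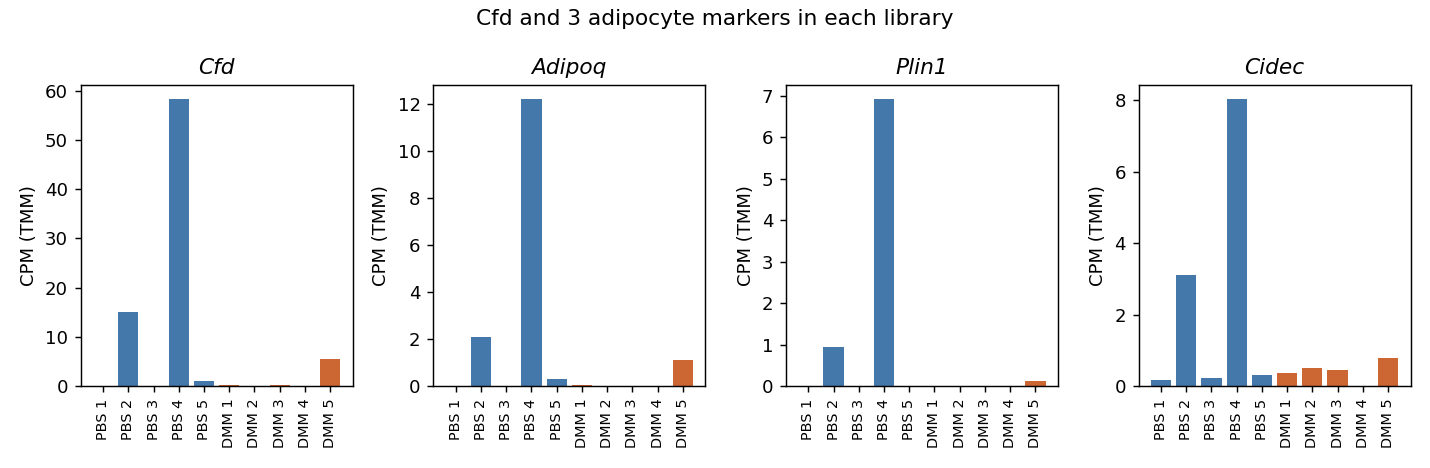
Level in CPM of Cfd and of the adipocyte markers Adipoq, Plin1 and Cidec in each of the 10 libraries (blue PBS, orange DMM). Cfd and Adipoq are highest in PBS replicate 4, at 58.3 and 12.2 CPM, followed by PBS replicate 2 and DMM replicate 5.

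Cfi (ENSMUSG00000058952, chr3:129835884-129875332) encodes factor I, the protease that degrades cleaved C3 and C4. Its level was 46.6, 49.9, 59.5, 32.5 and 39.8 CPM in PBS replicates 1 to 5, and 34.8, 62.0, 58.3, 45.0 and 73.9 CPM in DMM replicates 1 to 5. It was the member in which PBS replicate 3 was highest of its group and DMM replicate 1 lowest of its group. The log2 fold change was 0.26 (standard error 0.21, adjusted p = 0.624 from edgeR) over 10 libraries and 0.50 (standard error 0.18, adjusted p = 0.151) over 8. Among the fits over the 8 libraries, Cfi was called higher only without DMM replicate 4. Its log2 fold change was 0.62 there, with an adjusted p of 0.0120 from edgeR, and 6.71% of 16828 tested genes were called higher. Over all alternatives its adjusted p ran from 0.0120 to 0.367. With the correction for gene length, chosen after seeing the data, it was 0.0391 (edgeR) at a log2 fold change of 0.578. There Cfi was short of the fold change threshold alone. The proximal tubule genes were likewise high in PBS replicate 3 and low in DMM replicate 1, as given above. The sum of 5 loop and distal tubule genes, with Umod the most abundant, was 3012, 2514, 4107, 1884 and 1630.4 CPM in PBS replicates 1 to 5, and 2594, 4045, 4633, 1834 and 4999 CPM in DMM replicates 1 to 5. The sum of 5 collecting duct genes, with Aqp2 the most abundant, was 151, 128, 291, 117 and 119 CPM in PBS replicates 1 to 5, and 153, 203, 306, 134 and 283 CPM in DMM replicates 1 to 5. Over 8 libraries 3 of 4 tested genes of the former list and 1 of 5 of the latter were called higher, and over 10 libraries 0 were called or passed before adjustment (edgeR). The part of these tubule genes in the Cfi values was not tested.

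Per length, C3 was the most abundant member in PBS kidneys, at 382 ± 62.6 FPKM (SD, n = 5). Serping1 followed at 239 ± 17.9 FPKM, C1s1 at 63.0 ± 6.51 FPKM and C1ra at 35.6 ± 1.46 FPKM, and each of these differed from the next by more than their SDs. C4b (24.2 ± 4.46 FPKM), Cfi (20.4 ± 4.53 FPKM), Cfd (16.1 ± 27.1 FPKM) and C2 (11.4 ± 2.21 FPKM) came next, and of these C4b, Cfi and Cfd each overlapped the following member within the spread. The mean of Cfd, and so its place above C2 and Cfb, rested on PBS replicate 4. It was at 58.3 CPM there, against 15.1 CPM or less in the other PBS libraries. Cfb was lowest by these means, at 5.16 ± 0.579 FPKM, and differed from C2 by more than the SDs. Whether this order holds depends on how reads on bases shared with other genes were counted, which is not known. Only 579 of 2825 exon bases of Cfb and 2055 of 3872 of C2 are unshared, so both levels may be understated, that of Cfb by more. In DMM kidneys C3 was at 524 ± 264 FPKM and Serping1 at 149.7 ± 53.5 FPKM (SD, n = 5).

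Of 46 further complement genes, 31 were tested over 10 libraries and 30 over 8. Over 10 libraries 0 were called by edgeR, and before adjustment 7 were lower and 0 higher (p below 0.05, more than 1.5-fold), against 4.11% of all tested genes that were lower. Of all 16505 tested genes, 315 were higher before adjustment. Over 8 libraries 4 fell and 3 rose, against 3.56% of all tested genes called lower and 2.73% called higher. Those that fell were C1qb, a chain of C1q, at a log2 fold change of -1.35 (adjusted p = 0.0479 from edgeR), Cfp, which encodes the alternative pathway stabiliser properdin, at -1.23 (adjusted p = 0.0165), and the complement receptor chains Itgax at -1.30 (adjusted p = 0.0148) and Itgb2 at -1.04 (adjusted p = 0.00848). Those that rose were C8a, a terminal component, at 2.59 (adjusted p = 0.0107 from edgeR), the receptor gene Cr2 at 0.88 (adjusted p = 0.0407) and the C1r-like gene C1rl at 0.63 (adjusted p = 0.0483). Over 10 libraries the log2 fold changes were -0.98 for C1qb, -0.82 for Cfp, -0.97 for Itgax and -0.78 for Itgb2, with adjusted p of 0.378 to 0.388 (edgeR). They were 1.06 for C8a (edgeR adjusted p = 0.569), 0.55 for Cr2 (0.493) and 0.33 for C1rl (0.563), so the higher values depended on the libraries set aside. With PBS replicate 3 alone left out, C8a was at 2.38 (edgeR adjusted p = 0.264) and was not called. With DMM replicate 1 alone left out, Itgb2 (-1.02, edgeR adjusted p = 0.00486), Itgax (-1.26, 0.0127) and Cfp (-1.11, 0.0447) were called lower. C1qb (-1.29, 0.0632) was not, and 2.6% of all tested genes were called lower in that fit. Over 8 libraries only Itgb2 and C8a kept their call in all 8 fits without another library. Itgax lost it in 2 of them, Cfp in 5, and C1qb, Cr2 and C1rl in 7 each. With library size alone the calls of C1qb (edgeR adjusted p = 0.0563), Cr2 (0.0695) and C1rl (0.131) were lost, as were those of Cr2 (0.150) and C1rl (0.126) without the filter on low counts and that of Cr2 (0.0590) with the correction for gene length. Over all alternatives on 8 libraries, the adjusted p of these 3 genes ran from 0.000330 to 0.138 for C1qb, from 0.0123 to 0.150 for Cr2 and from 0.00377 to 0.152 for C1rl.

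Levels in each library set these genes beside the members. C1qb was at 263 to 394 CPM in PBS kidneys and at 292, 181, 149, 49.4 and 157 CPM in DMM replicates 1 to 5, with replicate 1 high and replicate 4 low as in C1s1. C8a was at 1.17, 1.35, 7.87, 0.426 and 0.765 CPM in PBS replicates 1 to 5, and at 1.79, 4.35, 5.95, 3.26 and 8.81 CPM in DMM replicates 1 to 5, with PBS replicate 3 high and DMM replicate 1 low as in Cfi. In the other lists, the gene of smallest p over 10 libraries was Colec12 among lectin pathway genes (log2 fold change -0.33, adjusted p = 0.428 from edgeR), C6 among terminal components (-0.65, adjusted p = 0.437) and Cd59a among regulators on cell surfaces and in fluid (0.27, adjusted p = 0.413). Over 8 libraries these were -0.42 (0.135), -0.95 (0.0574) and 0.34 (0.107). Over the 8 libraries the adjusted p of C6 ran from 0.00970 with DESeq2 to 0.171 without PBS replicate 4, and it passed both thresholds with DESeq2, with library size alone (0.0326) and without DMM replicate 4 (0.0106). Of 9 genes in the list of those regulators, 7 were tested and 0 were called in either set of libraries.

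**Figure D4:**
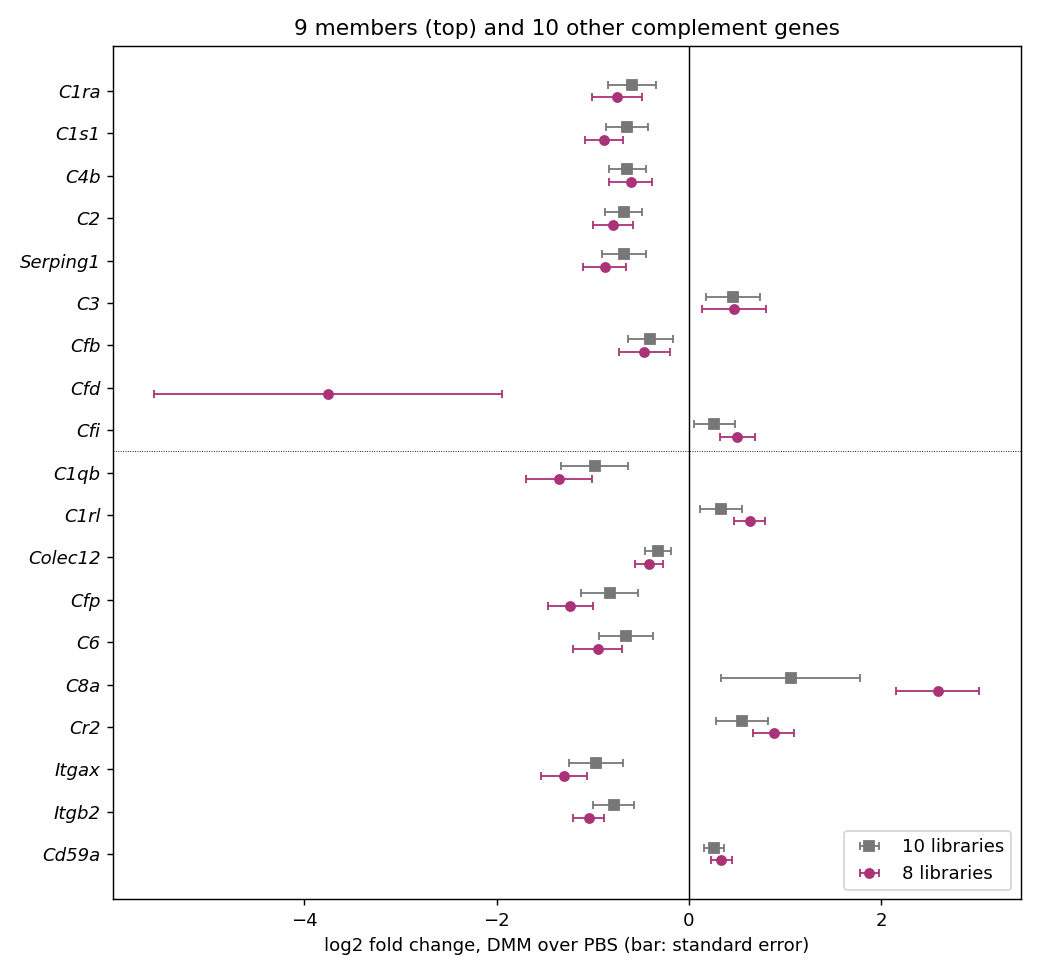
Log2 fold change of DMM over PBS with its standard error for the 9 members (above the dotted line) and 10 other complement genes named by rule, over 10 libraries (squares) and 8 libraries (circles). C1s1 is at -0.64 and -0.88, C3 at 0.46 and 0.47, and Cfd is drawn over 8 libraries alone.

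All 20 interferon response genes, of which Irf7 was the most abundant, were called lower over 8 libraries, with a median log2 fold change of -2.83. Over 10 libraries 0 of them were called by edgeR, 20 were lower before adjustment, and the median was -1.73. DMM replicate 1 differed from its group in these same genes, so their count over 8 libraries depends on its absence. Of all tested genes, 3.56% were called lower over 8 libraries. Over 10 libraries 0% were called lower, and 4.11% were lower before adjustment. The summed level of 8 macrophage genes, with Lyz2 the most abundant, was 1367, 1568, 1165, 1249 and 1489 CPM in PBS replicates 1 to 5, and 1396, 1078, 855, 876 and 868 CPM in DMM replicates 1 to 5, and 2 of them were called lower over 8 libraries and 0 over 10 (edgeR, with 3 lower before adjustment). Lyz2 alone made up 198 to 890.2 CPM of the macrophage sum, and only 5 of the 8 genes had a negative log2 fold change in either set of libraries. The 7 T cell genes, with Cd4 the most abundant, all had negative log2 fold changes, with a median of -1.19 over 8 libraries, where 1 was called lower, and -0.91 over 10, where 0 were called and 5 were lower before adjustment (edgeR). Their sum was 54.3, 56.0, 53.0, 46.9 and 79.2 CPM in PBS replicates 1 to 5, and 50.3, 42.6, 17.7, 21.6 and 22.8 CPM in DMM replicates 1 to 5. Of 8 fibroblast and myofibroblast genes 2 were called lower over 8 libraries and 0 over 10, where 0 were lower before adjustment, and their sum, with Col3a1 the most abundant, was 6642, 9759, 5237, 14386 and 9179 CPM in PBS and 11261, 5327, 3735, 7363 and 4277 CPM in DMM kidneys. No gene of these 4 lists was at 0 in all libraries. DMM replicate 1 was inside the PBS range in each of them, as for C1ra, C1s1 and Serping1, but DMM replicate 4, the lowest for those members, was not the lowest in any of the sums, although it was for Irf7 (30.4 CPM) and Lyz2 (197.8 CPM). The part of these cells and of the interferon response in the values of the members was not tested.

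Of 10 proximal tubule genes 4 were called higher over 8 libraries and 0 over 10, where 2 were higher before adjustment (edgeR). The sum of the 10 genes was 7221, 6013, 5191 and 8858 CPM in DMM replicates 2 to 5. Of all tested genes, 2.73% were called higher over 8 libraries, and 315 of 16505 were higher before adjustment over 10. Of 6 hepatocyte genes 3 were called higher over 8 libraries and 0 over 10, where 3 were higher before adjustment, with Serpina1a the most abundant, but the defining gene Alb was at 1.52 CPM or less in every library, and the sum was 22.1, 28.1, 44.0, 19.5 and 18.1 CPM in PBS and 16.1, 63.5, 80.9, 38.1 and 107 CPM in DMM kidneys. In replicate 4 of either group the sum of 5 neutrophil genes was high, at 114 CPM with PBS and 108 CPM with DMM, against 18.5 to 35.3 CPM elsewhere. Their part in the C3 values was not tested. Of 11 acute phase and NF-kappa B genes, 10 were tested and 0 called.

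Tested genes outside the pathway had profiles over the 10 libraries much like those of most members. The root mean square difference between centred log2 profiles was 0.102 from C1ra to Icosl and 0.106 to Cd37, 0.107 from C1s1 to Pnp and 0.119 to Rhog, and 0.118 from Serping1 to Cyth4 and to Grn. These differences were small against the SD of the members' own log2 levels, which was 0.579, 0.524 and 0.558. As the nearest of 16505 tested genes over 10 libraries, the named genes would be close from the search alone. No background distance was computed. For C2 the nearest genes were Rasgef1b (0.139) and Npc2 (0.164), for C4b Lmntd1 (0.195) and Atp8b4 (0.216), and for Cfb Pttg1 (0.073) and Tmem106a (0.103). C3 was nearest to Lrrc8a (0.151) and Cp (0.160), and Cfi to Ndufaf6 (0.083) and Acat2 (0.108). Among the tested genes no close match existed for Cfd, whose nearest genes H19 (1.84) and Iglc1 (2.08) differed by much of its SD of 3.25. Only 2 of the 8 adipocyte genes were tested over 10 libraries, so the others were not compared with Cfd.

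Promoters of 4 of the 9 members were in a RefSeq table of build GRCm38.p6, namely those of C3, Cfd, C1ra and C1s1, the last with 2 start sites. The 250 bases before each start were searched on both strands. By the coordinates in the deposited table, 216 of these bases in C1ra and 38 at the other start of C1s1 lie inside the gene itself, and 0 in the other 3 windows. The motifs were the core of the interferon-stimulated response element (GAAANNGAA), the gamma-activated site (TTCNNNGAA), the C/EBP core (TTGCNNAA) and the NF-kappa B motif. They occur in 7.13%, 7.02%, 9.56% and 3.90% of the 32851 promoters in the table. C/EBP factors and NF-kappa B are known regulators of acute phase genes, and the other motifs bind factors of the interferon response. Of the 5 windows, 2 held a C/EBP core and 0 held any of the other motifs. The windows of C3 and C1s1, which hold that motif, are given here, from chr17:57228137-57228386 and chr6:124542360-124542609, both on the minus strand, with the match in capitals.
C3 promoter: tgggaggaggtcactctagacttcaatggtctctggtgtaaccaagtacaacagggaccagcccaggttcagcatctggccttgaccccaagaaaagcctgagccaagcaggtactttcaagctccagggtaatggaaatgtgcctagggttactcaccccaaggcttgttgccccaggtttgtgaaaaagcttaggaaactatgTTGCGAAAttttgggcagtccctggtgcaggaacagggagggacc
C1s1 promoter: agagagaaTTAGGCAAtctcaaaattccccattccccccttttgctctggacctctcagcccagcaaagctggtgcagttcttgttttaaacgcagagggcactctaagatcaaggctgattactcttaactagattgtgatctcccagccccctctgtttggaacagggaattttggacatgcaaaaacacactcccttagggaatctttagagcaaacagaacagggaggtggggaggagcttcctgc
The match lies at -45 to -38 from the start of C3 and at -242 to -235 from that of C1s1, where it is on the opposite strand. A match of letters is not a bound site. The windows of C1ra and Cfd held none of these letters, which says nothing of the factors.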

How the data were processed

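Reads of the 10 libraries were aligned by the authors to mm10, with HISAT2 2.0.5 in the submitters' processing notes, and the count of reads per gene was deposited without normalization. The counting tool, the annotation release and the use of strand are not given in the sources used here. The FPKM values that the authors deposited, scaled by gene length and library, served only for levels between genes. The deposited group means are a signal in normalized counts and served only to find which libraries the authors weighted. Columns with the authors' fold changes and p-values were not used.

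Counts were tested by edgeR 4.0.16 in R 4.3.3 (filterByExpr, TMM, quasi-likelihood test, Benjamini-Hochberg adjustment over all tested genes), and a call needed an adjusted p below 0.05 together with a change of more than 1.5-fold. The standard error is the log2 fold change over the square root of F. DESeq2 1.42.0 was an alternative, beside RLE size factors, library size alone, no filter on low counts, no fold change threshold, each library left out, the replicate number as a block and, chosen after seeing the data, a correction for gene length. Tested on simulated counts with 200 genes changed 3-fold, the edgeR steps recovered 77.5% of them with 10 libraries and 70.5% with 8, with 5 and 3 false calls.

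The members and lists were chosen with earlier results of these data known. Genes named are the 9 members, other complement genes called in either set of libraries or of smallest p in their list over 10 libraries, the 2 tested genes most like each member, and the most abundant gene of a marker list or a marker at 0. Podxl, Alb, Plin1, Adipoq, Cidec, Cidea, Lipe, Lep, Retn and genes that overlap a member or are its copy, such as C4a, were named after their values were seen. Exons, shared stretches of 100 bases and promoters were read by Python 3 scripts from GENCODE vM21 and RefSeq. Reads carry no molecular identifiers that the sources used here mention, so counting limits cover counting error only.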

Additional observations from a re-analysis of the deposited data

Results flagged for a closer look

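Cfd in DMM replicate 5, at 5.41 CPM, was far above the other 4 DMM libraries, which were at 0.185 CPM or less. The gap was 0.753 of the group's range on the log2 scale. Chance marks about 1 in 20 groups in this way, and 1 of 18 groups of members was marked here. DMM replicate 5 was also the DMM library with the highest Adipoq, at 1.09 CPM.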

How the results depend on the processing

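Over 253 combinations of a member, a set of libraries and an alternative, 0 changed the direction of the log2 fold change and 16 crossed the threshold of a call. Cfd could be tested over 10 libraries in some alternatives alone, with a log2 fold change of -3.70 and an adjusted p of 0.578 from edgeR without the filter. Over 10 libraries the count of called genes was 0, against 50 with DESeq2 and 1042 over 8 libraries, and without a single library it was between 0 and 486, the latter without DMM replicate 1. The count of called members was 0, against 1 over 8 libraries, and between 0 and 1 without a single library. At an unadjusted p under 0.05 with the fold change, 993 genes passed over 10 libraries. The replicate numbers gave no sign of pairing. Correlations of deviations were -0.06, 0.08, 0.34, 0.12 and -0.22, and no equal numbers were each other's best match. Such a check cannot show that pairing was absent. With the replicate block 0 genes and 0 members were called. Over 8 libraries 1042 genes were called, against 1660.0 with DESeq2, and between 407 and 2410 without a single library, at its highest without DMM replicate 4. Library size alone gave 276 higher and 700 lower in place of 452 and 590, and moved the median log2 fold change of all tested genes from 0.02 to -0.09. The count of called members was 1, against 2 with RLE size factors, 3 with DESeq2 and 3 with the correction for gene length that was chosen after seeing the data, and between 0 and 4 without a single library. Of all tested genes, 3.56% were called lower in the fit given first, 3.46% with RLE size factors, 3.02% with DESeq2, 4.17% with the correction for gene length and 7.61% without DMM replicate 4. The 4 were C1s1, C2 and Serping1, lower, and Cfi, higher, without DMM replicate 4. In none of these cases was the cause tested.

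Groups held 4 or 5 mice, and the self-test covered 3-fold changes alone, which is more than the members other than Cfd showed. The call of C1s1 over 8 libraries followed a choice of libraries by their values. It did not hold in 6 of 8 fits without another library, with a log2 fold change between -0.98 and -0.83 in these. Low counts limit Cfd, and shared sequence limits Cfb, C2, C4b, C1ra and C1s1.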
